A study of Mus musculus with 2 samples.

Results

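Cytochrome P450 genes were followed through the cells of mouse colon tumours. The set held every listed gene whose symbol is Cyp followed by a family number, a subfamily letter and a gene number, which gave 94 of 55357 features. Single-cell RNA sequencing gave 1 library for each of 2 genotypes. The KO-labelled library came from ECM1Flox/Flox, Villin-Cre mice, in which Cre recombinase is driven by the Villin promoter of intestinal epithelium, and the WT-labelled library from ECM1Flox/Flox mice, so both carry the floxed alleles and only the first carries Cre. The sources used here give neither the mice's age, treatment and number nor the tumour model. Every difference between the libraries is therefore a difference between 2 single samples, no test was possible, and the intervals below cover counting error only.

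Cytochrome P450 enzymes are haem proteins that insert oxygen into small lipophilic molecules, most of them in the endoplasmic reticulum with electrons from P450 oxidoreductase and some in mitochondria with electrons from ferredoxin. Families 1 to 3 oxidise drugs, plant compounds and carcinogens as well as some lipids. Family 4 hydroxylates the far end of fatty acids and eicosanoids, and other families make or remove bile acids, steroid hormones, vitamin D and retinoic acid. In the gut, absorptive epithelium is the known site of drug-oxidising P450 enzymes, and several of these genes are targets of nuclear receptors.

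The unit is CPM, the unique molecular identifiers (UMIs) of a gene per 1000000 UMIs of the cell class or cluster in which they were summed. Libraries held 4233 and 8262 cells after filtering, labelled KO and WT in that order. The deposited barcodes had a median of 7949.5 and 2705.5 UMIs. This gap did not hold in every cluster: the macrophage cluster led by Apoe and C1qc had medians of 7413.5 and 9955 UMIs. Epithelial-like cells, named from Epcam and keratin markers, were 2493 (58.9%) and 2228 (27.0%), with a median of 18499 and 8489 UMIs per cell. They formed 9 clusters, and their mix differed: the surface-like cluster, led by Saa1 and Clca4b, held 37 cells in the KO-labelled library and 448 in the WT-labelled one, and the goblet-like cluster 183 and 35. Only 13 cell barcodes were shared by both libraries. Ecm1, the targeted gene, stood at 40.5 CPM (95% interval 38.9 to 42.2; 2346 UMIs) and 34.1 CPM (32.1 to 36.3; 1012 UMIs) in epithelial-like cells, a ratio of 1.19 (1.10 to 1.28), so its level was not lower under the label KO. Where in the gene those UMIs lie is not known, so this neither checks nor replaces the genotype label.

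Of the 94 genes, 30 had at least 50 UMIs over both libraries and are described by name, 9 had 10 to 49, 25 had 1 to 9 and 30 had none. The name detoxification genes would fit only some of them. Families 1 to 3, without Cyp2r1, which was counted with the vitamin D enzymes, made up 58 of the 94 genes but 13 of the 30, and 27.3% of all P450 UMIs. The fatty acid hydroxylases of family 4 (17 genes, 8 of the 30) gave 38.4% and the sterol and bile acid enzymes (6 genes, 3 of the 30) 15.2%. Cyp20a1, an orphan enzyme with no settled substrate, gave 12.1%, the steroid hormone enzymes (6 genes, 2 of the 30) 4.28% and the vitamin D and retinoid enzymes (6 genes, 3 of the 30) 2.83%. The 9 genes with 10 to 49 UMIs were Cyp2d9, Cyp2d13, Cyp3a11, Cyp1b1, Cyp2c65, Cyp27b1, Cyp4x1, Cyp2e1 and Cyp2j9. Cyp1a1, the classic target of the aryl hydrocarbon receptor, had 3 UMIs in the KO-labelled library and 0 in the WT-labelled one, and Cyp24a1, the vitamin D 24-hydroxylase, had 0 in both.

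The genes differed first in the class of cell that held their UMIs. More than 80% of the UMIs lay in epithelial-like cells for 21 of the 30 genes, and under 50% for 7, beside 44.7% and 17.03% of the 17397 genes with at least 50 UMIs. Epithelial-like cells held 71.5% of all UMIs, so a share of this size alone does not mark a gene as epithelial. Against all other cells, 16 of the 30 were at least 2-fold higher in epithelial-like cells in both libraries, where 24.6% of all 17397 genes tested were. These 16 were Cyp27a1, Cyp2j6, Cyp3a13, Cyp2s1, Cyp2b10, Cyp2d10, Cyp2d34, Cyp2d26, Cyp21a1, Cyp39a1, Cyp4f39, Cyp4f17, Cyp4f40, Cyp4f14, Cyp2c55 and Cyp2c68. All but Cyp27a1, Cyp2j6, Cyp2d34 and Cyp39a1 reached the minimum of 50 UMIs only through epithelial-like cells. The count of 6 at least 2-fold lower (Cyp7b1, Cyp26b1, Cyp4v3, Cyp4f18, Cyp11a1 and Cyp26a1) compares with 15.1% of all genes. Of these, Cyp7b1 and Cyp26a1 reached the minimum only through the other cells. The counts of 16 and 6 are thus partly set by the minimum, which applied to all genes alike.

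**Figure D1:**
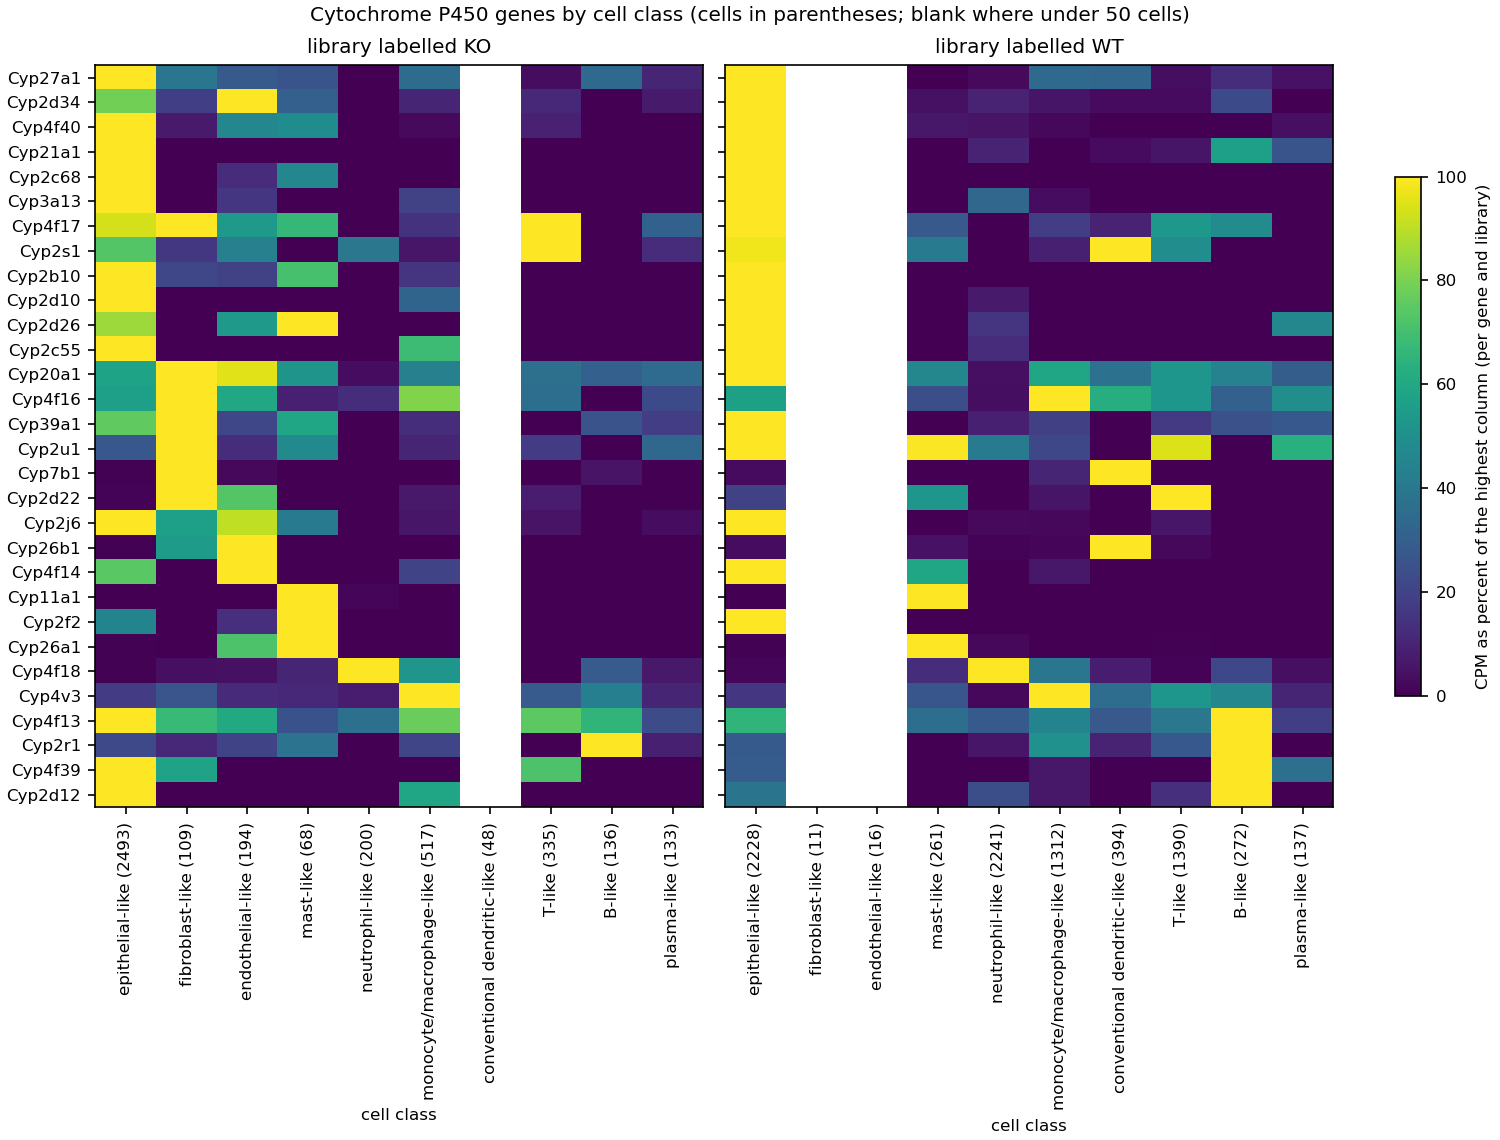
Rows are the 30 P450 genes with at least 50 UMIs and columns the cell classes, with the number of cells in parentheses and one panel per library. Colour is the CPM as a percent of the highest class of that gene in that library, so a row with few UMIs can reach 100% on a handful of counts, and classes under 50 cells are blank. The highest class is the same in both panels for 14 of the 30 genes and is epithelial-like for 9 of these, while Cyp4f18, Cyp11a1, Cyp26a1 and Cyp4v3 peak in the same immune class in both panels.

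Summed over all 94 genes, the level did not separate epithelial-like cells from the rest. It was 172 CPM (169 to 176; 9978 UMIs) in epithelial-like cells and 180 CPM (172 to 188) in all others in the KO-labelled library, a ratio of 0.958. In the WT-labelled library the sums were 196 CPM (191 to 202; 5822 UMIs) and 200.5 CPM (194.7 to 206.4), a ratio of 0.98. The balance rests on Cyp4f18: without it, as an alternative chosen after seeing the data, the ratios were 1.45 and 2.55. The sum is thus made of different genes in different classes.

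Genes of absorptive epithelium came first. The absorptive-like cluster, led by Gsdmc4, Muc3, Slc5a8 and Car1, held 256 and 130 cells, and 10 of the 26 genes with at least 50 epithelial UMIs were at least 2-fold higher there than in the other epithelial-like cells in both libraries, beside 5.33% of all 15546 genes tested. The 10 were Cyp3a13, Cyp2s1, Cyp2f2, Cyp2d10, Cyp2d34, Cyp2d26, Cyp4f40, Cyp4f14, Cyp2c55 and Cyp2c68. The cluster held 93 and 4 of the 117 and 6 epithelial UMIs of Cyp2f2, and 49 and 43 of the 62 and 52 of Cyp2c55. Both genes thus reached the minimum of 50 UMIs only through this cluster. The WT-labelled side of the Cyp2f2 call rested on 4 UMIs there. P450 genes had been left out of the genes used for clustering, so the cluster was not built on them, although genes that vary together with them were used. Its border with the surface-like cluster depended on the clustering. With doublets retained the absorptive-like cluster held 191 and 16 cells, too few to call in both libraries, and at resolution 0.5 no cluster had that name and the surface-like one held 270 and 559 cells. With both clusters pooled, an alternative chosen after seeing the data, 11 of the 26 were higher, the same 10 and Cyp21a1 (background 6.20%).

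In contrast, 2 of the 26, Cyp27a1 and Cyp4f17, were at least 2-fold lower there, beside 10.8% of all genes. Over all clusters with at least 50 cells in both libraries, 15 of the 26 were at least 2-fold apart from the other epithelial-like cells in at least 1 of 7 clusters, the same way in both libraries, beside 31.9% of all genes. Higher calls numbered 0 of 26 in the mitotic-like cluster (background 3.25%), the Paneth/defensin-like cluster (3.58%), the Nox1 and Fut9 progenitor-like cluster (0.862%) and the unnamed cluster (0.843%). Lower calls numbered 8 of 26 in the mitotic-like cluster (background 4.36%), 5 in the progenitor-like cluster (3.8%), 6 in the unnamed cluster (5.16%) and 3 in the Paneth/defensin-like cluster (7.11%), the last being Cyp2s1, Cyp39a1 and Cyp4f40. In the Wnt-high-like clusters they numbered 3 in cluster 6 (Cyp2d34, Cyp21a1 and Cyp4f40; background 6.93%) and 7 in cluster 11 (7.9%).

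**Figure D2:**
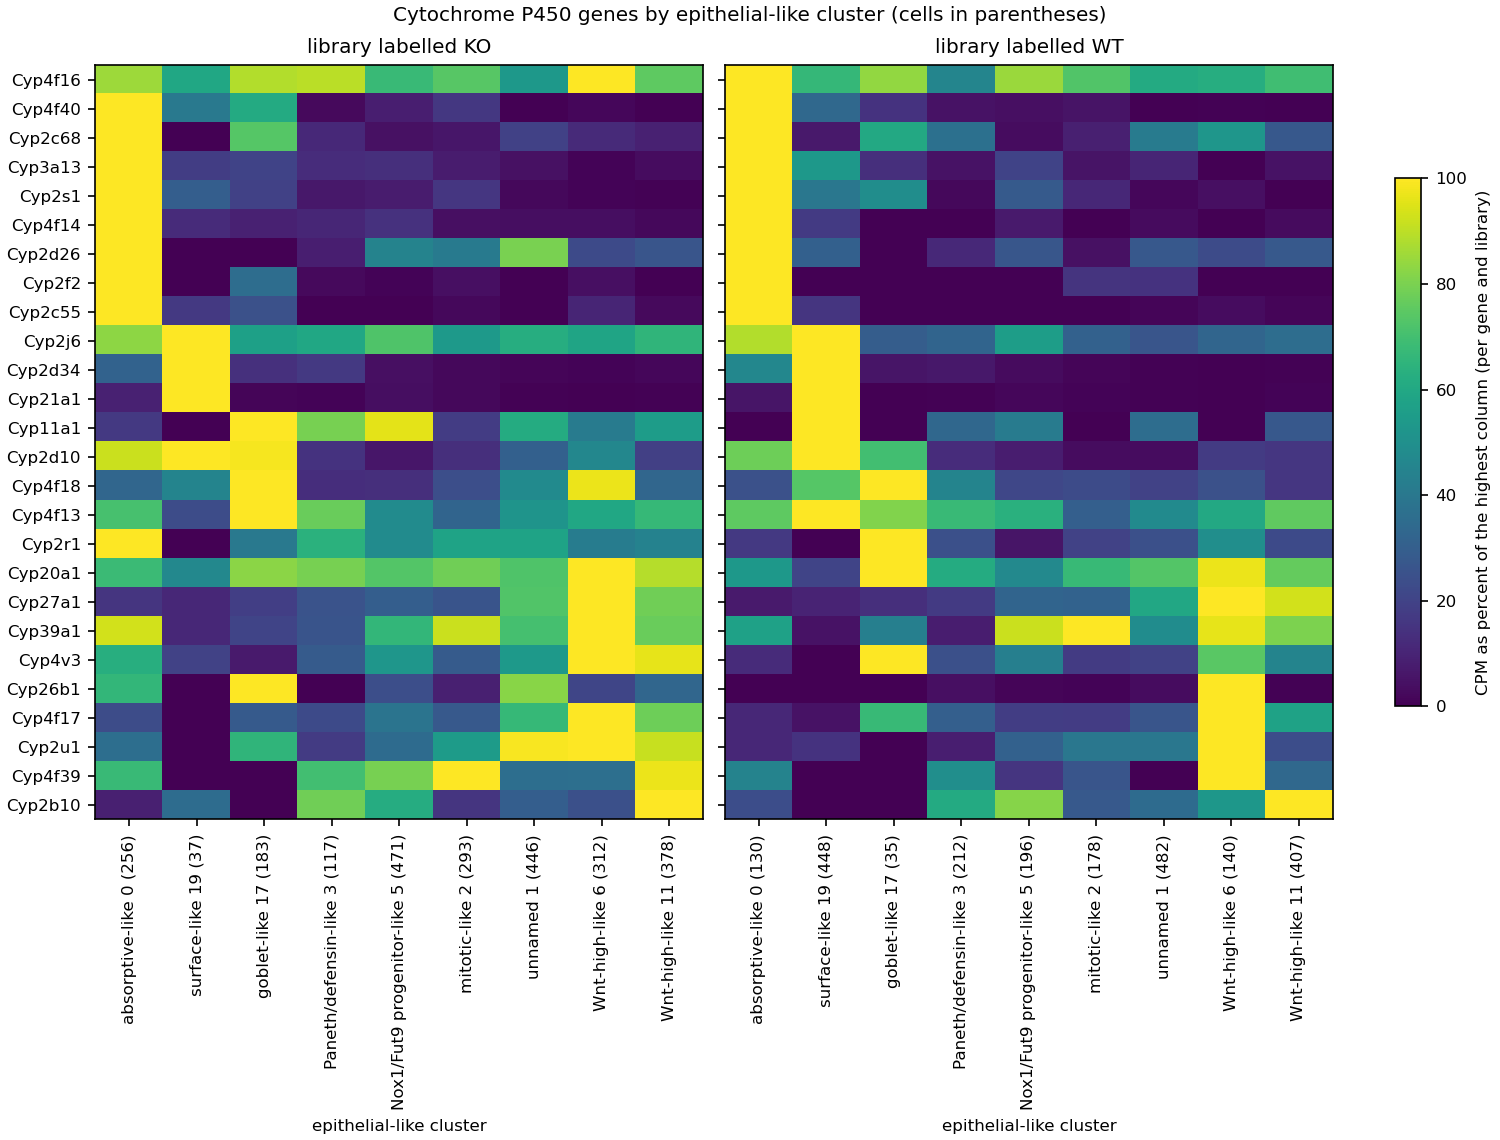
Rows are the 26 P450 genes with at least 50 UMIs in epithelial-like cells and columns the 9 epithelial-like clusters, with cells in parentheses. Colour is the CPM as a percent of the highest cluster of that gene in that library. A block of rows peaks in the absorptive-like cluster, Cyp21a1 and Cyp2d34 peak in the surface-like one, and Cyp27a1 and Cyp4f17 are highest in the Wnt-high-like cluster 6.

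The promoters of 2 of these absorptive genes are shown because Cyp2c55 and Cyp2c68 lie in the same array of 14 neighbouring Cyp2c genes and shared the cluster, while their difference between the libraries ran in opposite directions. Each sequence is the 250 bases before the start of the gene from RefSeq (build GRCm38.p6), written 5′ to 3′ on the gene's strand. Capitals mark matches, on either strand, to any of 8 motifs. The letters searched were GCGTG for the xenobiotic response element core, TATAAA for the TATA box and TTTATG for a CDX site. For a GATA site they were AGATAA, for a PU.1 and ETS site GAGGAA, for the nuclear receptor half-site AGGTCA, for an HNF4 site CAAAGTCCA and for the CCAAT box CCAAT.
Cyp2c55, chr19:39006769-39007018, plus strand: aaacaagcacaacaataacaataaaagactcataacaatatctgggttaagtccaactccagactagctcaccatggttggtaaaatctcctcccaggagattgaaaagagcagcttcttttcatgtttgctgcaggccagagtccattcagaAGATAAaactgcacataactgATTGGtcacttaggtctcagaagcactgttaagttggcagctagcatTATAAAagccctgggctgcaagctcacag
Cyp2c68, chr19:39741102-39741351, minus strand: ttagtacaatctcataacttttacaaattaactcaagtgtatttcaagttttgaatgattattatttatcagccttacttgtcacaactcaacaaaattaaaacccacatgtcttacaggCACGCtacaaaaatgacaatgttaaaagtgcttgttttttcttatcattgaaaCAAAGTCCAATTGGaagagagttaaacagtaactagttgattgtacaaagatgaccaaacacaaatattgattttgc
The Cyp2c55 window held a TATA box, a GATA site and a CCAAT box, found in 12.4%, 9.99% and 33.8% of 32851 promoters of the same length. The Cyp2c68 window held the HNF4 letters, which occur in 0.384% of all promoters, and 2 CCAAT matches on opposite strands, the first of which overlaps the HNF4 letters and the other of which overlaps only the first, so that 5 bases belong to 2 motifs, and a GCGTG core (28.2% of promoters). Of 27 promoter windows matched to 22 of the 30 genes, that of Cyp2c68 alone held the HNF4 letters. A match is a description of these letters only.

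Cyp2c55, an inducible colonic enzyme that oxidises arachidonic acid, stood in the absorptive-like cluster at 7.52 CPM (49 UMIs) in the KO-labelled library and 17.5 CPM (43 UMIs) in the WT-labelled one. That was 29.7-fold and 52.7-fold the level of the other epithelial-like cells. The level in the cluster was lower in the KO-labelled library, at a ratio of 0.431 (0.280 to 0.665). Few cells carried it: 5 cells in each library held 79.6% and 74.4% of these UMIs, and without them the ratio was 0.336 (0.128 to 0.871) on 10 and 11 UMIs. Cyp2c68 stood there at 22.7 CPM (148 UMIs) and 8.12 CPM (20 UMIs), a ratio of 2.80 (1.75 to 4.71), and 4.87 (2.48 to 10.9) without the 5 richest cells, which held 20.9% and 55.0% of its UMIs there. The goblet-like cluster, led by Zg16 and Muc2, came second for Cyp2c68 in both libraries, at 16.7 CPM (36 UMIs) and 4.90 CPM (2 UMIs). With the surface-like cluster pooled into the absorptive-like one, the ratios were 0.614 (0.405 to 0.932) for Cyp2c55 and 4.16 (2.62 to 6.91) for Cyp2c68. The size of both ratios thus depended on the cluster border.

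Cyp2f2, best known for activating naphthalene in lung airways, was almost wholly seen in the KO-labelled library. It had 93 UMIs in the absorptive-like cluster of that library (14.3 CPM) and 4 in the WT-labelled one (1.62 CPM), a ratio of 8.79 (3.32 to 32.9). With the surface-like cluster pooled in, the ratio was 13.7 (5.18 to 51.4). Over all epithelial-like cells the counts were 117 and 6 UMIs, a ratio of 9.98 (4.45 to 27.8), and the 5 cells with the most Cyp2f2 held 18.8% of the 117 UMIs. A further 11 UMIs fell in the goblet-like cluster of the KO-labelled library and 0 in the WT-labelled one, which has 35 such cells.

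Cyp4f40 and Cyp4f14, members of the family 4 branch that hydroxylates eicosanoids, also marked the absorptive-like cluster. Cyp4f40 stood there at 46.3 CPM (41.3 to 51.9; 302 UMIs) and 134 CPM (120 to 150; 331 UMIs), which is 10.5-fold and 21.7-fold the other epithelial-like cells. Its level in the cluster was lower in the KO-labelled library, at a ratio of 0.345 (0.294 to 0.404). The next clusters by level were the goblet-like one in the KO-labelled library (28.3 CPM, 61 UMIs) and the surface-like one in the WT-labelled one (45.4 CPM, 84 UMIs), and the Wnt-high-like clusters lay at 0.772 CPM or less. Cyp4f14 stood in the absorptive-like cluster at 10.3 CPM (67 UMIs) and 15.8 CPM (39 UMIs), a ratio of 0.649 (0.431 to 0.990). With the surface-like cluster pooled in, the ratio was 0.450 (0.388 to 0.523) for Cyp4f40 and 0.911 (0.615 to 1.36) for Cyp4f14. The size of both ratios thus depended on the cluster border.

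Cyp3a13, the gut member of the large drug-oxidising 3A subfamily, and Cyp2s1, an enzyme of epithelia outside the liver, marked the cluster in both libraries. Cyp3a13 stood at 20.6 CPM (17.2 to 24.4; 134 UMIs) and 18.3 CPM (13.3 to 24.4; 45 UMIs), 12.0-fold and 9.19-fold the other epithelial-like cells. Cyp2s1 stood at 16.7 CPM (13.7 to 20.2; 109 UMIs) and 15.0 CPM (10.6 to 20.7; 37 UMIs), 12.8-fold and 10.5-fold. For both genes the intervals of the 2 libraries overlap. With the surface-like cluster pooled in, the levels of Cyp3a13 were 18.7 CPM (137 UMIs) and 14.6 CPM (63 UMIs). Those of Cyp2s1 were 15.4 CPM (113 UMIs) and 11.1 CPM (48 UMIs). Each pooled level lay below that of the absorptive-like cluster alone, so for both genes the surface-like cluster was the lower of the 2. The folds above are over all other epithelial-like cells together. Cyp3a11, the main liver 3A enzyme, had 14 and 10 UMIs in all, each of them in epithelial-like cells.

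The 2D genes form a subfamily of drug-oxidising enzymes. Cyp2d10 stood at 6.90 CPM (45 UMIs) and 10.96 CPM (27 UMIs) in the absorptive-like cluster and at 7.51 CPM (6 UMIs) and 14.1 CPM (26 UMIs) in the surface-like cluster, with 7.42 CPM (16 UMIs) and 9.81 CPM (4 UMIs) in the goblet-like one. These intervals overlap within each library, so no order among the 3 clusters can be read. Cyp2d26 stood at 4.30 CPM (28 UMIs) and 5.28 CPM (13 UMIs) in the absorptive-like cluster. The 2D genes lie side by side in 2 runs of 4 (Cyp2d22, Cyp2d11, Cyp2d10 and Cyp2d9, then Cyp2d12, Cyp2d34, Cyp2d40 and Cyp2d26), and 2C, 2D and 4F neighbours are similar enough that reads may be shared or dropped between them, so counts of single members of these arrays are uncertain.

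Cyp2d34 and Cyp21a1 stood highest in the surface-like cluster, which held 37 cells under the label KO. Its cells had a median of 6890 UMIs in the KO-labelled library and 2472 in the WT-labelled one. The neutrophil marker S100a8 stood at 179 and 1475 CPM in this cluster. The part of depth or of RNA from other cells in the ratios of both genes was not tested. Cyp2d34 stood there at 70.1 CPM (53.0 to 91.1; 56 UMIs) and 213 CPM (192 to 235; 394 UMIs), and in the absorptive-like cluster at 22.1 CPM (18.6 to 26.0; 144 UMIs) and 98.2 CPM (86.2 to 111; 242 UMIs). Each of the 2 clusters was lower in the KO-labelled library, at ratios of 0.329 (0.244 to 0.437) and 0.225 (0.182 to 0.278). The other 7 clusters held 13.9 CPM at most. Cyp2d34 was seen in 6.94% of epithelial-like cells (173 of 2493) and 16.1% (358 of 2228) as deposited, where T-like cells, which should lack the gene, gave 0.299% and 0.216% at median depths of 3096 and 2294 UMIs. After thinning cells to 1000 UMIs the epithelial-like shares were 0.897% and 5.08%, and the T-like ones 0% and 0.226%. Thinned shares, here and below, are not over the same cells as the deposited ones. With the same cells, the T-like share of the WT-labelled library could not have risen.

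Cyp21a1, the steroid 21-hydroxylase known for making corticosteroids in the adrenal gland, stood in the surface-like cluster at 35.1 CPM (23.3 to 50.7; 28 UMIs) and 177 CPM (158 to 197; 327 UMIs), a ratio of 0.198 (0.130 to 0.292). In the absorptive-like cluster it stood at 3.22 CPM (21 UMIs) and 10.1 CPM (25 UMIs), and in the other 7 clusters 2.82 CPM at most. Of its 489 UMIs, 96.1% were in epithelial-like cells. Cyp11a1, which starts steroid synthesis from cholesterol, had 0 and 5 UMIs in the same surface-like cells, and 4 of the 6 steroid hormone genes, Cyp17a1 and Cyp11b1 among them, had 0 UMIs in all cells. Cyp21a1 has a near-identical pseudogene, listed as Cyp21a2-ps, which had 0 UMIs in every class, and it adjoins the tenascin genes: Tnxa had 0 and 1 UMIs and Tnxb 0 and 0 in the surface-like cells. The sources used here do not say how reads matching both the gene and its pseudogene were counted.

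**Figure D3:**
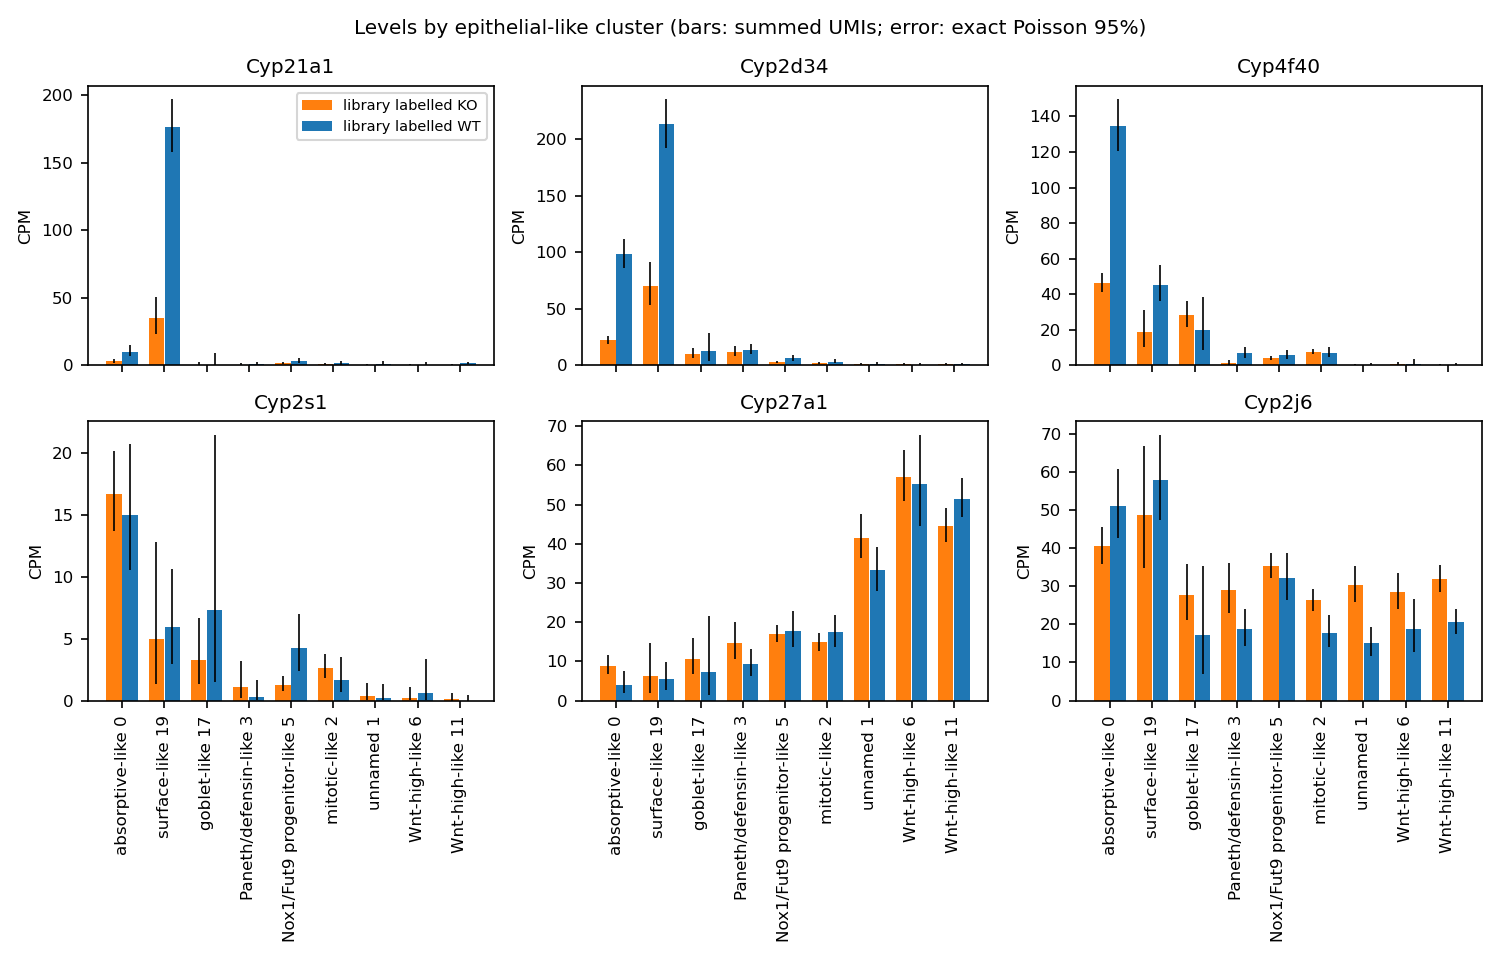
Bars are CPM by epithelial-like cluster for 6 P450 genes in the KO-labelled library (orange) and the WT-labelled one (blue), on linear axes from 0, and lines are exact Poisson 95% intervals. Cyp21a1 and Cyp2d34 stand highest in the surface-like cluster, Cyp4f40 and Cyp2s1 in the absorptive-like one and Cyp27a1 in both Wnt-high-like clusters, while Cyp2j6 is present in all 9.

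The promoters of Cyp27a1 and Cyp2b10 are shown because both were at least 2-fold higher in the Wnt-high-like cluster 11, led by Fst, Sox11 and Cadps, in both libraries; the source, build, motifs and capitals are as above.
Cyp27a1, chr1:74713285-74713534, plus strand: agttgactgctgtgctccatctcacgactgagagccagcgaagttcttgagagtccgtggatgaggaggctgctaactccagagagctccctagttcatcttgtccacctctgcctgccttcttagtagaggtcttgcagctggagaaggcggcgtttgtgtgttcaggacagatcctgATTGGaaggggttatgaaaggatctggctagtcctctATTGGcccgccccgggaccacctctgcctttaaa
Cyp2b10, chr7:25897408-25897657, plus strand: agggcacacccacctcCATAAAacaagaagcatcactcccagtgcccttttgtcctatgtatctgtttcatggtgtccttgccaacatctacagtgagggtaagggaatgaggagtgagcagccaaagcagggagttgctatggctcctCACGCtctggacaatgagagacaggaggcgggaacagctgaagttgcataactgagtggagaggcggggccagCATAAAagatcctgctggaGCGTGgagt
The Cyp27a1 window held 2 CCAAT boxes, and the Cyp2b10 window held 2 GCGTG cores and 2 CDX sites (10.8% of all promoters hold at least 1 CDX match). No motif of the 8 was common to both windows.

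Cyp27a1, the mitochondrial sterol 27-hydroxylase of bile acid and oxysterol synthesis, stood at 57.1 CPM (50.8 to 64.0; 296 UMIs) and 55.3 CPM (44.5 to 67.9; 91 UMIs) in the Wnt-high-like cluster 6, which is led by the pancreatic lipase-related genes Pnliprp2 and Pnliprp1. In the Wnt-high-like cluster 11 it stood at 44.6 CPM (40.6 to 49.04; 436 UMIs) and 51.6 CPM (46.7 to 56.7; 418 UMIs). The absorptive-like cluster held 8.90 CPM (58 UMIs) and 4.06 CPM (10 UMIs), and the surface-like cluster 6.26 CPM (5 UMIs) and 5.41 CPM (10 UMIs). Both Wnt-high-like clusters thus lay above both differentiated clusters in each library, with intervals that do not overlap. The unnamed cluster 1, whose cells are shallow, held 41.6 CPM (218 UMIs) and 33.2 CPM (138 UMIs).

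The 2 genes called higher in cluster 6 were Cyp27a1 and Cyp4f17, beside 6.36% of all genes, and the 2 in cluster 11 were Cyp27a1 and Cyp2b10, beside 4.95%. Cyp4f17, another family 4 hydroxylase, stood in cluster 6 at 6.56 CPM (34 UMIs) and 10.9 CPM (18 UMIs). Cyp2b10, the classic target of the constitutive androstane receptor, stood in cluster 11 at 7.07 CPM (5.50 to 8.94; 69 UMIs) and 3.45 CPM (2.29 to 4.99; 28 UMIs), and in the absorptive-like cluster at 0.614 CPM (4 UMIs) and 0.812 CPM (2 UMIs). Nr1i3, which encodes that receptor, had 29 and 37 UMIs in all epithelial-like cells. Cyp2s1 had 1 UMI in each Wnt-high-like cluster of the KO-labelled library, and 1 and 0 UMIs in clusters 6 and 11 of the WT-labelled one.

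Other members were found in all 9 clusters. Cyp2j6, an epoxygenase of arachidonic and linoleic acid, lay between 26.3 and 48.8 CPM over the 9 clusters of the KO-labelled library and between 15.2 and 57.8 CPM in the WT-labelled one, with the surface-like cluster highest in both. It was detected in 42.1% and 23.2% of epithelial-like cells as deposited and in 2.82% and 2.68% after thinning to 1000 UMIs, so the gap in detection closed at equal depth. Cyp20a1 lay between 16.3 and 34.7 CPM and between 6.49 and 31.9 CPM, with the surface-like cluster lowest in both libraries. Cyp39a1, the 24-hydroxycholesterol 7-alpha-hydroxylase, ranged from 1.25 to 11.4 CPM and from 0.541 to 11.3 CPM, again with the surface-like cluster lowest. Cyp4f16 and Cyp4f13 ranged from 10.1 to 18.9 CPM and from 3.76 to 16.2 CPM in the KO-labelled library, and from 6.62 to 14.6 CPM and from 4.59 to 15.1 CPM in the WT-labelled one.

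Between the libraries, epithelial-like cells as a whole differed little in the summed level and much in a few genes. The sum over all 94 genes was 172 and 196 CPM, a ratio of 0.877 (0.849 to 0.906). Without the surface-like cluster, chosen after seeing the data, the ratio was 1.01, with each cluster of at least 50 cells weighted equally it was 0.945, and with each cell weighted equally 0.673. Of the 26 genes tested, 2 were at least 2-fold higher in the KO-labelled library (Cyp2f2 and Cyp4f39), beside 2.66% of 15546 genes, and 4 were at least 2-fold lower (Cyp21a1, Cyp26b1, Cyp2d34 and Cyp4f18), beside 7.47%. The median log2 difference, KO minus WT, was 0.20 over the 26 and -0.02 over all genes tested.

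Among the 4 lower genes, Cyp21a1 stood at 1.40 CPM (81 UMIs) and 13.1 CPM (389 UMIs), a ratio of 0.107 (0.0828 to 0.136), and Cyp2d34 at 5.68 CPM (329 UMIs) and 24.8 CPM (735 UMIs), a ratio of 0.229 (0.201 to 0.261). Without the surface-like cluster the ratios were 0.416 and 0.390, so both stayed lower, by less. Cyp4f40 stood at 9.14 CPM (529 UMIs) and 16.8 CPM (499 UMIs), a ratio of 0.543 (0.479 to 0.615), short of 2-fold. Cyp26b1, a retinoic acid hydroxylase, had 18 and 45 UMIs, and 62.2% of the 45 came from 1 cell: without the 5 richest cells of each library the ratio moved from 0.205 to 0.850.

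Cyp4f18 had 57 and 119 UMIs in epithelial-like cells, 0.985 and 4.02 CPM, a ratio of 0.245 (0.176 to 0.339). Neutrophil markers moved with it: in epithelial-like cells 10 of 10 were lower under the label KO, with the interval of the ratio below 1, at a summed 139 and 851 CPM, and none was at 0. Of 12 monocyte/macrophage markers 10 were lower in the same way, at a summed 344 and 451 CPM. S100a8, a neutrophil marker, stood there at 49.9 and 356 CPM. There were 19.7 and 11.3 Cyp4f18 UMIs per 1000 S100a8 UMIs in epithelial-like cells. The same measure was 3.04 and 4.04 in neutrophil-like cells and 1040 and 235 in monocyte/macrophage-like cells. The share of epithelial-like cells with a Cyp4f18 UMI was 1.89% and 4.49%, beside 0.299% and 0.935% of T-like cells. After thinning to 1000 UMIs the shares were 0.214% and 0.335%, beside 0% and 0.226%. The part of neutrophil or macrophage RNA in this difference was not tested.

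Apart from Cyp2f2, genes that were higher in the KO-labelled library differed less in size. Cyp4f39, known for ceramide synthesis in skin, had 67 and 16 UMIs (1.16 and 0.540 CPM), a ratio of 2.14 (1.23 to 3.96), and 1.15 with each cell weighted equally. Cyp2c68 had a ratio of 1.88 (1.45 to 2.46), Cyp2b10 1.58 (1.17 to 2.16), Cyp4f16 1.40 (1.22 to 1.60), Cyp20a1 1.31 (1.20 to 1.44) and Cyp2j6 1.26 (1.16 to 1.38). Cyp20a1 and Cyp4f16 were higher in the KO-labelled library in each of the 7 clusters compared, with the interval above 1 in 2 and 3 of them. Cyp2j6 was higher in 6 of 7, with the exception of the absorptive-like cluster at 0.792. Cyp27a1, at a ratio of 0.908 (0.834 to 0.990), was 1.05 with equal weight per cluster and 1.16 with each cell weighted equally.

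**Figure D4:**
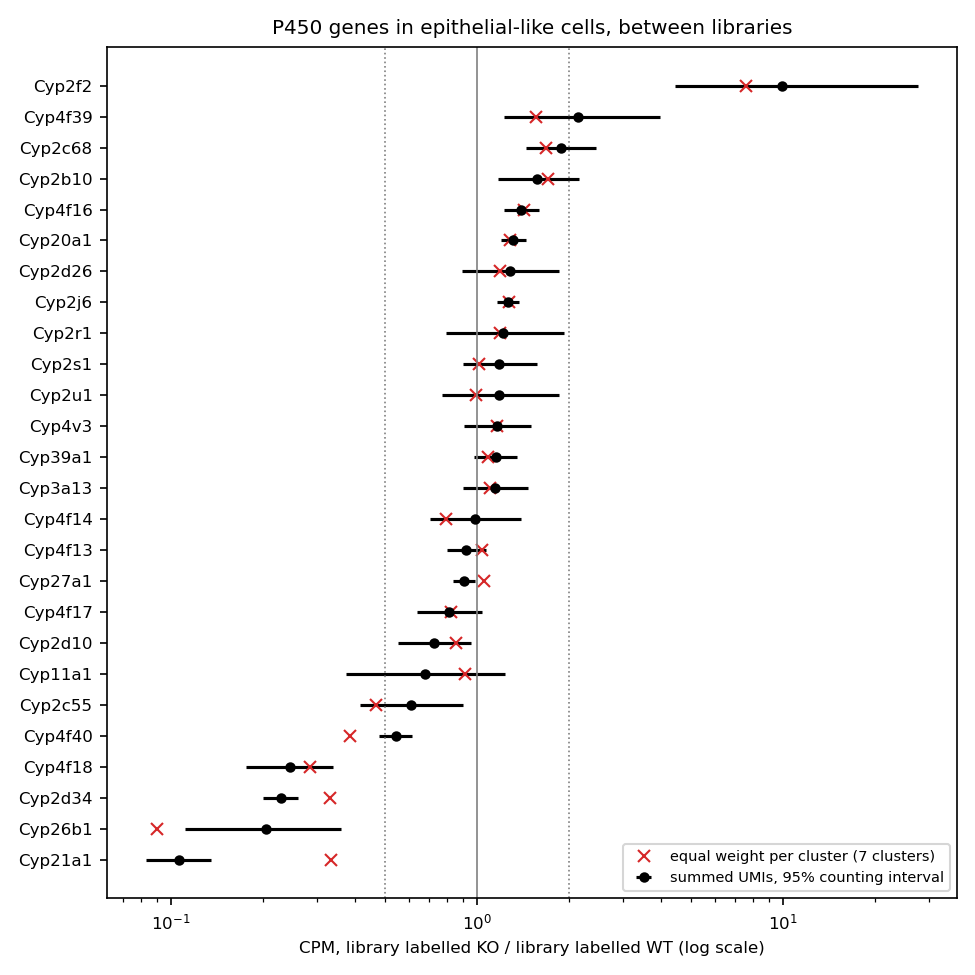
Points are the ratio of CPM in epithelial-like cells, KO-labelled library over WT-labelled library, for the 26 P450 genes with at least 50 UMIs, on a log axis, and lines are exact 95% counting intervals. Dotted lines mark a 2-fold difference and red crosses the ratio with equal weight for each of 7 clusters. These have at least 50 cells in both libraries. The crosses thus leave out the surface-like cluster (37 KO-labelled cells) and the goblet-like one (35 WT-labelled cells). Most points lie between the dotted lines, Cyp2f2 stands apart at 9.98, and the crosses of Cyp21a1 and Cyp2d34 (0.335 and 0.332) lie nearer to 1 than their points.

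Outside the epithelium, a few P450 genes stood highest in an immune or stromal class. Cyp4f18, which inactivates leukotriene B4 by hydroxylation, had 802 and 2965 UMIs in all cells, and its promoter is shown because it was the one member highest in neutrophils; source, build, motifs and capitals are as above.
Cyp4f18, chr8:72009627-72009876, minus strand: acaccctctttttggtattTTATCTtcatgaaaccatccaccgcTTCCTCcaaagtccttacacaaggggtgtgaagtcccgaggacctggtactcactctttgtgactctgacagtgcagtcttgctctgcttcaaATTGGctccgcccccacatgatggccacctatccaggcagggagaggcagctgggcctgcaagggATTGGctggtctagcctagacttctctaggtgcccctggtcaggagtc
This window held a GATA site, a PU.1 and ETS site (23.3% of all promoters) and 2 CCAAT boxes.

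Cyp4f18 stood at 235 CPM (198 to 277; 143 UMIs) and 338 CPM (321 to 356; 1525 UMIs) in neutrophil-like cells, a ratio of 0.696 (0.582 to 0.827). Next came monocyte/macrophage-like cells, with 122 CPM (112 to 133; 499 UMIs) and 133 CPM (125 to 141; 1138 UMIs), and B-like cells 67.1 CPM (23 UMIs) and 74.0 CPM (40 UMIs). T-like cells held 1 and 13 UMIs. The order of neutrophil-like, monocyte/macrophage-like and B-like cells was the same in both libraries, with intervals that do not overlap between neighbours. Within monocyte/macrophage-like cells the cluster led by Apoe and C1qc was lowest, at 101 and 116 CPM, and the clusters led by Chil3 and by Ccl24 stood at 148 and 142 CPM and at 148 and 145 CPM. The smaller neutrophil-like cluster, led by Ccl3, held 185 CPM (112 to 290; 19 UMIs) and 408 CPM (358 to 464; 238 UMIs), and the larger one 245 CPM (204 to 293; 124 UMIs) and 328 CPM (310 to 346; 1287 UMIs). The smaller cluster was thus the higher one in the WT-labelled library only, and in the KO-labelled library the intervals overlap.

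Cyp11a1 was a gene of mast-like cells. It stood at 207 CPM (167 to 254; 93 UMIs) and 335 CPM (298 to 374; 312 UMIs) there, a ratio of 0.620 (0.487 to 0.784), and was seen in 63.2% (43 of 68) and 52.1% (136 of 261) of these cells, beside 0% and 0.288% of T-like cells. After thinning to 1000 UMIs the share was 26.2% in both, beside 0% and 0.151%. Both mast-like groups were far above every other class, of which none exceeded 3.29 CPM. In epithelial-like cells 29 and 22 UMIs were found, with Mcpt2, a mast cell protease, at 11.9 and 36.7 CPM. There were 42.1 and 20.2 Cyp11a1 UMIs per 1000 Mcpt2 UMIs in epithelial-like cells and 6.60 and 6.07 in mast-like cells. Neutrophil-like cells gave 42.6 and 11.5, on 2 and 5 Cyp11a1 UMIs, and monocyte/macrophage-like cells 16.4 and 7.81, on 2 and 3. B-like, endothelial-like and plasma-like cells had 0 Cyp11a1 UMIs in both libraries. The part of mast cell RNA in the epithelial-like counts was not tested. The mast-like cells of the KO-labelled library also held Epcam at 1771 CPM, against 57.9 CPM in the WT-labelled one, and the part of epithelial RNA in their lower Cyp11a1 was not tested.

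Cyp26a1, which degrades retinoic acid, had 38 of its 66 UMIs in the mast-like cells of the WT-labelled library (40.7 CPM, 28.8 to 55.9) and 3 in the KO-labelled ones (6.69 CPM), a ratio of 0.164 (0.0324 to 0.518). Its relative Cyp26b1 was found in stromal and dendritic cells. Dendritic-like cells, led by Ccl22, Ccl17 and Ccr7, held 36.7 CPM (13 UMIs, all in 5 of 48 cells) and 44.1 CPM (118 UMIs in 394 cells). In the KO-labelled library it stood at 71.2 CPM in endothelial-like cells (118 UMIs, of which 80.5% came from 5 of 194 cells) and 39.4 CPM in fibroblast-like cells (59 UMIs). The WT-labelled library had 16 endothelial-like and 11 fibroblast-like cells, too few to compare. The fibroblast-like cluster also had Rgs5, Acta2 and Tagln, of the mural (pericyte and smooth muscle) marker list, among its 10 leading genes. Its mean z was 7.45 for the fibroblast list and 5.93 for the mural list. Mural cells within it were not told apart.

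Cyp7b1, the oxysterol 7-alpha-hydroxylase, had 84 of its 125 UMIs in the fibroblast-like cells of the KO-labelled library, at 56.1 CPM (44.8 to 69.5), and 21 in its far more numerous epithelial-like cells (0.363 CPM), against 3 in the WT-labelled ones (0.101 CPM). Fibroblast markers in epithelial-like cells stood at a summed 14.3 and 3.04 CPM, with 6 of 8 higher under the label KO and none at 0, and their part in this difference was not tested. Cyp2d22 had 16 and 13 of its 67 UMIs in fibroblast-like and endothelial-like cells of the same library. Cyp4v3, a fatty acid hydroxylase, was highest in monocyte/macrophage-like cells, at 20.3 CPM (16.2 to 25.2; 83 UMIs) and 20.0 CPM (17.1 to 23.2; 171 UMIs). Within them it was highest, at 30.1 CPM (23.4 to 38.1) and 34.1 CPM (28.2 to 40.9), in the cluster led by Apoe and C1qc. Of the 6 P450 genes with at least 50 UMIs in monocyte/macrophage-like cells, 0 were at least 2-fold higher and 0 lower in the KO-labelled library (background 4.49% and 6.51%). The same counts were 0 and 0 of 2 in mast-like cells (16.3% and 11.7%), and 0 and 0 of 1 in neutrophil-like (4.17% and 14.3%), T-like (2.1% and 8.47%), B-like (2.13% and 6.81%) and plasma-like cells (4.87% and 8.62%).

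The endothelial-like cells of the KO-labelled library also held Epcam, at 1205 CPM, and Cyp2j6 at 28.9 CPM (48 UMIs) and Cyp20a1 at 45.2 CPM (75 UMIs) beside it. The part of epithelial RNA in these levels was not tested. Cyp2r1, the vitamin D 25-hydroxylase, had its highest level in B-like cells, on 2 UMIs in each library, and 74 and 31 UMIs in epithelial-like cells (1.28 and 1.05 CPM). Cyp2u1, a fatty acid hydroxylase, had 74 and 32 UMIs in epithelial-like cells, a ratio of 1.18 (0.772 to 1.85), and Cyp2d12 had 24 and 21, a ratio of 0.585 (0.312 to 1.11); both intervals hold 1.

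**Figure D5:**
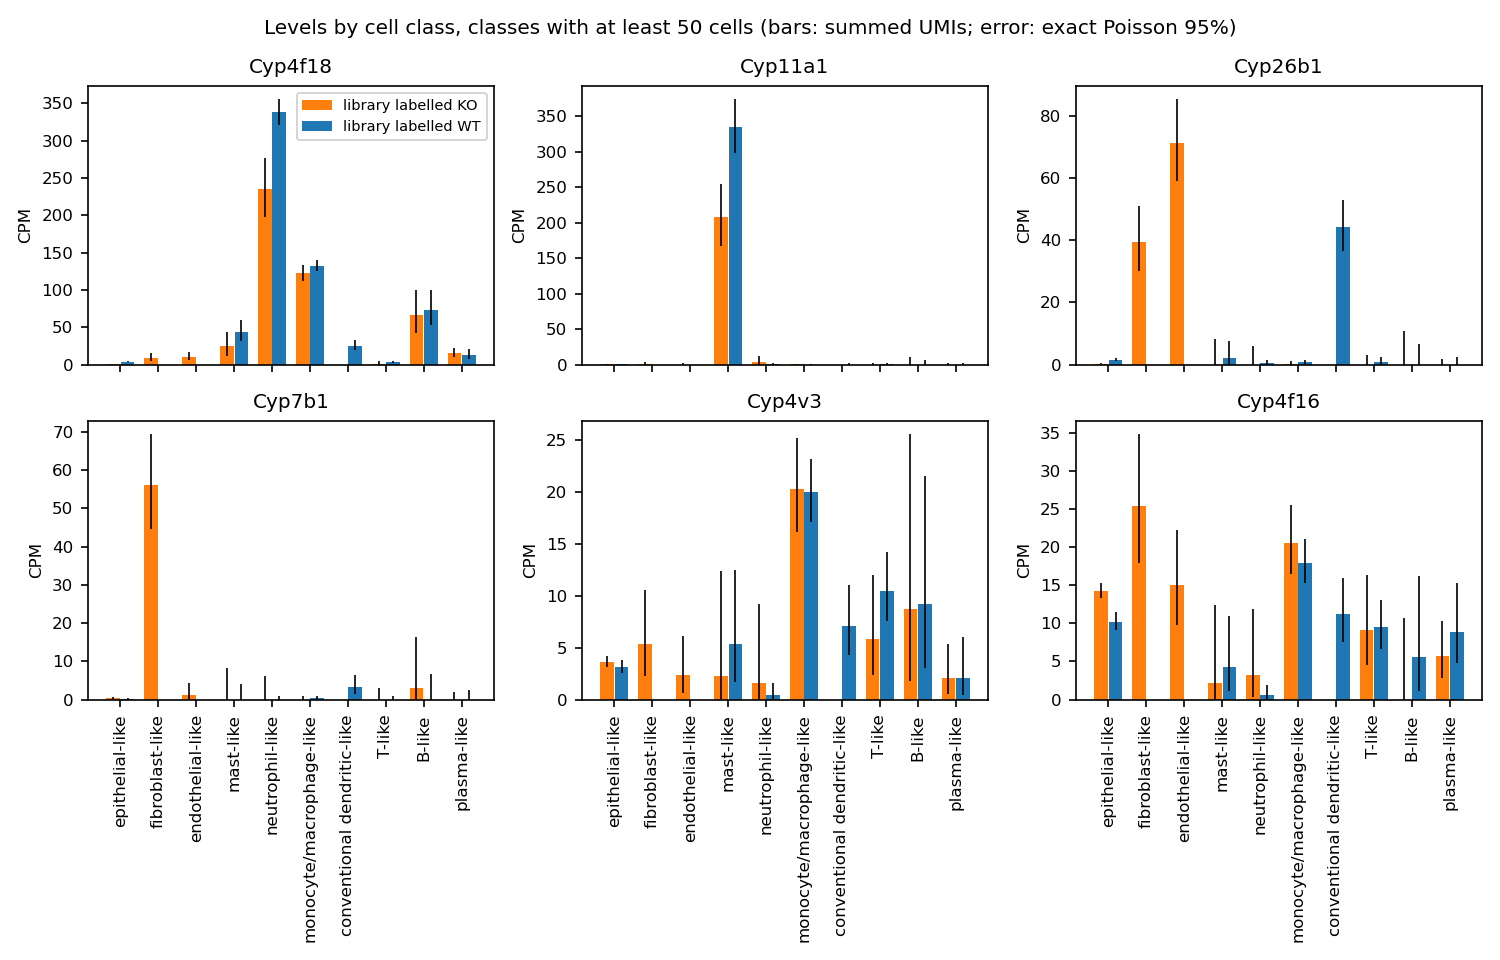
Bars are CPM by cell class for 6 P450 genes in the KO-labelled library (orange) and the WT-labelled one (blue), on linear axes from 0, with exact Poisson 95% intervals as lines. Classes under 50 cells in a library are not drawn. Cyp4f18 is highest in neutrophil-like cells, Cyp11a1 in mast-like cells, Cyp7b1 in the fibroblast-like cells of the KO-labelled library, the WT-labelled ones being too few to draw, and Cyp4v3 in monocyte/macrophage-like cells, while Cyp4f16 is spread over several.

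Partners and regulators of the P450 enzymes were read from 8 lists. Of 12 electron donors and haem genes tested, 0 differed by 2-fold between epithelial-like cells of the libraries, beside 2.66% of all genes higher and 7.47% lower, with a median log2 difference of 0.22. Por, which encodes P450 oxidoreductase, stood at 64.6 and 65.8 CPM. Of 17 regulators, Vdr, the vitamin D receptor, was at least 2-fold higher in the KO-labelled library (21.2 and 10.3 CPM; 2.06, 1.82 to 2.35) and Nr1i3 lower (0.401, 0.238 to 0.671), with a median of 0.08. By cluster, 8 of the 17 (Nr1i2, Rxra, Ppara, Pparg, Vdr, Hnf4a, Nr1h4 and Cdx2) were at least 2-fold higher in the absorptive-like cluster in both libraries, and Ahr lower, beside the 5.33% and 10.8% of all genes given above.

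Nr1i2, which encodes the pregnane X receptor that senses drugs, stood in the absorptive-like cluster at 20.6 CPM (134 UMIs) and 25.2 CPM (62 UMIs), and in the Wnt-high-like cluster 11 at 1.84 CPM (18 UMIs) and 2.47 CPM (20 UMIs). Hnf4a, a master regulator of enterocytes, stood at 130 and 157 CPM in the first and at 25.6 and 23.9 CPM in the second. Ahr, the aryl hydrocarbon receptor, ran the other way, at 21.5 and 13.0 CPM in the first and 94.9 and 58.6 CPM in the second.

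Conjugating and transport genes were read in the same way. At least 2-fold higher in the absorptive-like cluster in both libraries were 4 of 7 sulfation genes, 7 of 18 glutathione genes, 13 of 25 hydrolases, reductases and aldehyde-oxidising genes, 3 of 10 transporter genes and 1 of 4 glucuronidation genes. At least 2-fold lower there were 2 glutathione genes (Gsta3 and Gstm5), 2 of the 25 (Ephx1 and Fmo2), 3 transporter genes and 0 sulfation or glucuronidation genes. The backgrounds were again 5.33% higher and 10.8% lower. One of the 13, Adh1, was itself a marker used to name that cluster. Between the libraries, where the backgrounds were 2.66% higher and 7.47% lower, 2 sulfotransferases, Sult1a1 (6.46, 4.69 to 9.10) and Sult1c2 (3.76, 2.59 to 5.62), were at least 2-fold higher under the label KO. Of the 25 hydrolases and oxidising genes, 6 were higher, Fmo1 (6.08, 2.96 to 14.5) and Adh1 (2.96, 2.71 to 3.24) among them, and 2 were lower, of which Ces2f had a ratio of 0.0700 (0.0387 to 0.119). Their median log2 difference was 0.43. Of the 10 transporter genes, which include Slco2a1 and Slc22a5 beside the Abc genes, 0 were higher and 3 were lower. These were Abcg2, a xenobiotic pump, at 0.400 (0.346 to 0.462), Slco2a1 at 0.464 (0.377 to 0.569) and Abcc2 at 0.495 (0.464 to 0.529). None of 18 glutathione genes or 4 glucuronidation genes differed by 2-fold, at medians of 0.12 and -0.02. Sult1a1, Sult1c2, Fmo1, Adh1, Ces2f, Abcg2 and Vdr each stood furthest above the other epithelial-like cells in the absorptive-like cluster. That cluster held 11.3% of epithelial-like UMIs in the KO-labelled library and 8.31% in the WT-labelled one. These ratios are over all epithelial-like cells, and the part of the cluster mix in them was not tested.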

How the data were processed

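Unique molecular identifier counts per gene and barcode were analysed as deposited. The authors used Cell Ranger 7.2.0 to make the matrices, per the file headers, and per the submitters' processing notes the build was GRCm39. The protocol in the labels is not one for single cells, so the capture chemistry is unknown. The libraries held 4896 and 9512 barcodes (KO-labelled first) and 75024663 and 59189995 UMIs. A barcode was kept if it had 200 genes or more and less than 20% of its UMIs mitochondrial. Scrublet's own threshold marked 2 and 0 barcodes, so the highest-scoring 0.8% per 1000 barcodes were removed (154 and 633).

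Cells of the libraries were clustered jointly, with no integration step, on 2000 variable genes, with 30 components, 15 neighbours and Leiden resolution 1 at seed 0. Left out before the variable genes were chosen were the P450 members and the pathway-list genes that were not markers. Mitochondrial genes, ribosomal protein genes, Xist, Tsix and some Y-linked genes were left out as well. The 24 clusters were named from 14 class and 10 subtype marker lists by the highest mean z value. Where the 10 leading genes of a cluster held more markers of another list, that list gave the name, a choice made after seeing the data. A subtype name needed a z of at least 0.5 and 3 markers seen in 10% of cells. Names are rebuilt, not the authors'.

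Levels are the summed UMIs of a gene over those of all genes in the same class and library. Intervals are exact at 95% (Poisson for levels, conditional binomial for ratios, Clopper-Pearson for shares). A gene was called at 2-fold with at least 50 summed UMIs, and every sum under 3 was raised to 3 counts, so a gene with few UMIs in a cluster could miss a lower call. Named genes are all members with at least 50 UMIs and, of the 8 pathway lists, at most 3 a list past 2-fold, by the interval bound nearest to 1. Por, Nr1i2, Hnf4a, Ahr, Gsta3, Gstm5, Ephx1, Fmo2, the members of the absorptive-like receptor count and members under 10 UMIs were named after their values were seen. The members and lists were chosen with earlier results of these data known. Counts simulated with known fold changes were used to test the interval and call functions. Of genes outside the symbol rule, 2 of 7 could be compared and 0 differed by 2-fold. Versions were Python 3.11.15, matplotlib 3.10.9, igraph 0.11.9, scikit-learn 1.9.0, pandas 2.3.3, scipy 1.17.1, numpy 2.4.6, anndata 0.12.19 and scanpy 1.11.5.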

Additional observations from a re-analysis of the deposited data

How the results depend on the processing

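The summed P450 level in epithelial-like cells, KO-labelled over WT-labelled, was 0.877, and 0.673 with each cell weighted equally, 0.945 with equal weight per cluster and 0.934 under 10% mitochondrial UMIs. Equal weight per cluster covered the 7 clusters with at least 50 cells in both libraries, without the surface-like and goblet-like ones. Leaving out the unnamed cluster 1 gave 0.832 and leaving out the surface-like cluster gave 1.01, both chosen after seeing the data. The same sum over all other cells was 0.958 and 0.98, against 1.04 and 1.21 with each cell weighted equally and 1.45 and 2.55 without Cyp4f18, also chosen after seeing the data. In the WT-labelled library it was 0.916 under 10% mitochondrial UMIs. With a minimum of 10 summed UMIs, 11 members in place of 6 were 2-fold apart between the libraries, and 26 in place of 15 between epithelial clusters. Of the 26 single ratios, 15 moved beyond their counting interval with each cell weighted equally, 5 with equal weight per cluster, 2 without the 5 richest cells, 2 under 10% mitochondrial UMIs and 2 without the surface-like cluster. Retaining doublets moved 0. The 10 members higher in the absorptive-like cluster were 11 with the surface-like cluster pooled, 11 at resolution 0.5 (10 shared in each case) and 10 with doublets retained and both pooled (9 shared; Cyp2c68 lost, Cyp21a1 gained), all chosen after seeing the data. The causes were not tested. No paired analysis was possible because each genotype had 1 library. With 1 library each, no value here separates genotype from animal, tumour or library, and low genes are limited by depth.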
